A study of Mus musculus with 5 samples.

Results

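Trp53, the gene of the transcription factor p53, and 9 of its known target genes were followed in hematopoietic stem cells (HSCs) with and without the RNA-binding protein SYNCRIP. The members were the rows of the deposited table whose symbol is Trp53, Phlda3, Cdkn1a, Mdm2, Ccng1, Trp53inp1, Sesn1, Zmat3, Eda2r or Bbc3, 10 of 24046 rows. They were chosen by name, with their normalized read counts and the KO to WT difference in these same libraries already known, so those values are given as a description and no test is made of them. Their levels, their spread, their order in WT HSCs, their promoters and the wider p53 network are described below.

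The libraries came from donor bone marrow of Syncrip flox/flox mice, without the Mx1-Cre transgene (here WT; WT 1, WT 2 and WT 3) or with it (here KO; KO 2 and KO 3), that had been transplanted into congenic CD45.1 recipients. All recipients were given polyinosinic:polycytidylic acid (pIpC), an interferon inducer, 6 weeks after transplantation, and HSCs were taken 3 weeks later, 9 weeks after transplantation. HSCs were sorted as CD45.2+, Lin-, Sca1+, cKit+, CD150+ and CD48- cells, a gate that leaves out the CD45.1 cells of the host. RNA-seq libraries were made from total RNA with the SMART-Seq v4 low-input kit, which does not mark the strand of a read. Mx1-Cre is driven by an interferon-inducible promoter and is active in many cell types besides HSCs. WT HSCs carried the floxed alleles and received pIpC but had no Cre, so that loss of Syncrip and the presence of Cre cannot be told apart. The study describes its replicates as biological, but the labels do not tie each library to an animal, so p-values measure the spread between these samples.

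p53 is held at a low protein level by the ubiquitin ligase Mdm2 and accumulates after DNA damage, ribosomal stress or oncogene activation, when it binds DNA as a tetramer and switches on genes of cell cycle arrest, apoptosis, repair and metabolism. Because p53 is controlled mainly at the level of the protein, its own mRNA says little about its activity, and target genes are the usual readout. In HSCs, p53 is known to hold cells in quiescence and to remove damaged stem cells. The p53 response element is made of 2 copies of a motif of 10 bases, the p53 half-site, set apart by a spacer of up to 13 bases.

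The promoters of 4 members are shown since they span the range of what the windows held, from no half-site to a full element. RefSeq start sites gave 12 windows for 8 members (assembly GRCm38.p6, 250 bases before to 50 bases after each start), and no window was matched for Trp53inp1 or Zmat3. Capitals mark p53 half-sites, which read the same on both strands, so a search of either strand finds the same places. The Cdkn1a window lies at chr17:29090729-29091028 on the plus strand, that of Phlda3 at chr1:135765835-135766134 on the plus strand, that of Trp53 at chr11:69580109-69580408 on the plus strand and that of Ccng1 at chr11:40755237-40755536 on the minus strand, each written 5′ to 3′ along its gene.
Cdkn1a: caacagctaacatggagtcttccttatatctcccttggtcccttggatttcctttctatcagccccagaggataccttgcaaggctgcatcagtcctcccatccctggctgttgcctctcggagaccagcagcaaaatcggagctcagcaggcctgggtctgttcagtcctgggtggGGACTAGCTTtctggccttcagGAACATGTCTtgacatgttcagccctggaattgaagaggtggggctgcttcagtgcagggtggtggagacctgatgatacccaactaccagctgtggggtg
Phlda3: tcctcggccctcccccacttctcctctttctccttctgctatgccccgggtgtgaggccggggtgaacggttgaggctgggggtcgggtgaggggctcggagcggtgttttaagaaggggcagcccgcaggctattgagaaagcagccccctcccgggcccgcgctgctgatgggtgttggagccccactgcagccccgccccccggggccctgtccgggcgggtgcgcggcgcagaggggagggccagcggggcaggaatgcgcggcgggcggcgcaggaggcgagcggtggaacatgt
Trp53: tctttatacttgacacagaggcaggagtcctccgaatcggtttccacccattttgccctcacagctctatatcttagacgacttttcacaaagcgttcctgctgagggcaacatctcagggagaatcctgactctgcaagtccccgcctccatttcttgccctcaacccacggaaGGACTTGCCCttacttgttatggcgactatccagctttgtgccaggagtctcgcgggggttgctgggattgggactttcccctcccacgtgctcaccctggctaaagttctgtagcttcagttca
Ccng1: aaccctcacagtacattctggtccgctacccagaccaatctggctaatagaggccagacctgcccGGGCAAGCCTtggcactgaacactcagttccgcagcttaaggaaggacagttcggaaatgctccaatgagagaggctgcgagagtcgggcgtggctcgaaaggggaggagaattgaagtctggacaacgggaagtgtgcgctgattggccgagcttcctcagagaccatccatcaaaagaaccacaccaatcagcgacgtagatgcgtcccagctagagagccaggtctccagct

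The Cdkn1a window shown, that of the upstream start site, held 2 half-sites, at bases -73 to -64 and -51 to -42 from that start, close enough to form a full element. Only exact matches to the motif were counted. The bases that follow GAACATGTCT with no gap, tgacatgttc, differ from the motif only at their leading base and were not counted. The window of the downstream Cdkn1a start, at chr17:29093519-29093818, held none. It was the only member with a full element, which was present in 24 of all 32851 mouse windows (0.0731%). A half-site was found in 5 of the 12 member windows, belonging to 5 members, and in 2745 of all windows (8.36%). That of Trp53 lay at -75 to -66 and that of Ccng1 at -185 to -176, while Mdm2 had its own at -186 to -177 and the second Sesn1 start at -173 to -164. The windows of Phlda3, Bbc3 and Eda2r did not contain these letters, which says only that the motif is not in those bases. The Phlda3 window ends in gaacatgt, which matches the motif up to where the window edge cuts it. A half-site across that edge could not be seen. A match is a description of the sequence and not a measurement of binding.

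Depth was 12539599 and 18308876 recovered reads in the KO libraries and 21748781 to 22779536 in WT, so that each KO library was shallower than any WT library, while 14947 to 15740 genes had a read in each library. In KO HSCs the targeted gene, Syncrip, was at 18.5% of its WT level (log2 fold change -2.43, SE 0.22, adjusted p = 0.0352 by limma). Its transcript is 37.0% GC, and after each library was corrected for a trend on GC content and transcript length it was at -1.53 (SE 0.23, adjusted p = 0.138 by limma), past the threshold no longer. The gate and identity genes Kit, Ly6a, Slamf1, Procr, Hlf, Mecom and Fgd5 had reads in all 5 libraries, and WT and KO values overlapped for each of them. Ptprc, which encodes CD45, was below every WT library in both KO libraries (log2 fold change -1.42). Its transcript is 39.4% GC, and after the same correction it was at -0.69, still below every WT library in both KO libraries. KO 2 stood apart by adipocyte RNA: 12 of 12 markers were highest there, their sum was 0.165% of reads against 0.00116% in KO 3 and 0.00198% to 0.00395% in WT, and the brown fat marker Ucp1 had 5469 reads in KO 2 and 0 in the other libraries. KO 3 stood apart by neutrophil genes, whose 10 markers took 2.52% of its reads, against 5.16% in KO 2 and 5.78% to 6.91% in WT. These markers were split. Ngp, Camp, Ltf and Mmp8 were below every WT library in both KO libraries, and S100a8, S100a9, Mpo and Ctsg in KO 3 only. Elane and Prtn3 lay within the WT range in KO 3. The T cell markers took at most 0.000366% and the B cell markers 0.00268% to 0.00338% in any library. Erythroid markers took 0.0800% in KO 3, 0.125% in KO 2 and 0.125% to 0.182% in WT, and stromal and endothelial markers 0.0137% in WT 2 and 0.00356% to 0.00465% in the other libraries. The sort for CD45.2+, cKit+ cells without lineage markers, Gr1 among them, is meant to leave out adipocytes and mature neutrophils. The part of such cells in the values below was not tested, and where a level differs, fewer cells of a type and less RNA per cell cannot be told apart in bulk samples.

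The 10 genes did not move as a block. Trp53, Phlda3, Cdkn1a, Zmat3 and Bbc3 were higher in both KO libraries than in every WT library, Ccng1 and Trp53inp1 were lower in both, and the groups overlapped for Mdm2, Sesn1 and Eda2r. Over all 13661 genes tested, both KO libraries lay above every WT library for 23.9% and below for 23.2%. The median log2 fold change of the 9 members that passed the filter on low values (at least 10 in at least 2 libraries) was 0.46, with a range from -1.90 for Trp53inp1 to 3.86 for Phlda3, beside a median of 0.02 over all genes tested. In KO 2 alone the median against the WT mean was 0.37 and in KO 3 alone 0.67. All values are read counts divided by a size factor of the library (normalized read counts), and fold changes are KO minus WT of log2(value + 1), a scale on which the change of a low gene comes out too small.

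**Figure D1:**
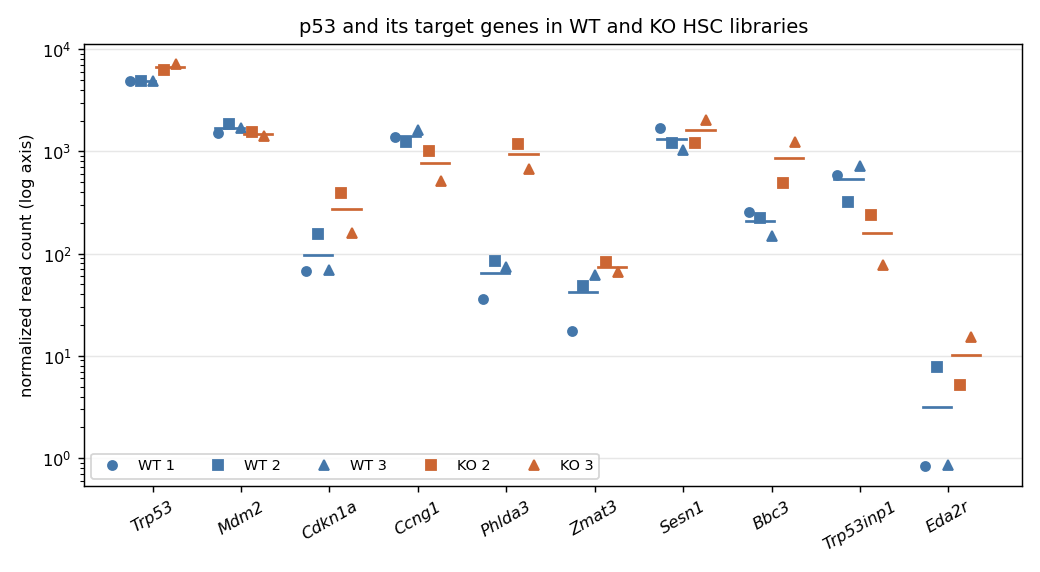
Normalized read count (log axis) of the 10 genes in WT 1, WT 2, WT 3, KO 2 and KO 3, with a bar at each group mean. Phlda3 sits between 35.8 and 84.2 in WT and at 1191 and 674 in KO, while the groups overlap for Mdm2, Sesn1 and Eda2r.

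Trp53 itself had 4893 normalized reads in WT 1, 4885 in WT 2 and 4825 in WT 3, and 6293 in KO 2 and 7132 in KO 3. WT libraries were nearly equal and both KO libraries stood above them. Means were 4868 ± 36.8 in WT (SD, n = 3, as for all WT means) and 6712 ± 593 in KO (SD, n = 2, as for all KO means), a ratio of 1.38 (log2 fold change 0.46, SE 0.16). It lies at chr11:69580359-69591873 on the plus strand (GENCODE M21, GRCm38) and is protein-coding, like all other members.

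Mdm2, which ubiquitinates p53 and is itself switched on by p53 in a feedback loop, did not separate the groups. Its values were 1527, 1871 and 1686 in WT 1, WT 2 and WT 3 and 1549 and 1423 in KO 2 and KO 3. KO 2 lay within the WT range and KO 3 below it. The means were 1695 ± 172 in WT and 1486 ± 89.2 in KO, and the log2 fold change was -0.19 (SE 0.18). The gene lies at chr10:117688875-117710758 on the minus strand.

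Ccng1, encoding cyclin G1, which brings a phosphatase to Mdm2, was lower in KO. It had 1386, 1233 and 1629 normalized reads in WT 1, WT 2 and WT 3, and 1009 and 512 in KO 2 and KO 3. Both KO libraries were below every WT library, KO 3 further than KO 2, and the KO mean was 0.537 of the WT mean (761 ± 352 against 1416 ± 200, log2 fold change -0.97, SE 0.30). Its locus is chr11:40748552-40755311 on the minus strand, and its promoter window held the half-site shown above.

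Cdkn1a encodes p21, the inhibitor of cyclin-dependent kinases through which p53 halts the cell cycle. Its normalized read counts were 67.4 in WT 1, 155 in WT 2 and 68.6 in WT 3, and 388 in KO 2 and 158 in KO 3. KO 2 stood clear of all WT libraries, whereas KO 3, with 104 reads, was only just above WT 2, with 179 reads before scaling. WT 2 is also the library with the highest share of stromal and endothelial markers, whose part in this value was not tested. The mean was 97.1 ± 50.4 in WT and 273 ± 162 in KO, and the ratio to the WT mean was 3.99 in KO 2 and 1.63 in KO 3 (log2 fold change for both together 1.46, SE 0.53). The gene lies at chr17:29090976-29100727 on the plus strand, and 273 of its 3553 exonic bases overlap AC167363.2 on the opposite strand, whose reads cannot be told apart from it without strand.

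Phlda3 showed the widest separation of the 10 genes. It encodes a small pleckstrin homology domain protein that competes with Akt for membrane lipids and so holds Akt back. Its normalized read counts were 35.8 in WT 1, 84.2 in WT 2 and 73.7 in WT 3, and 1191 in KO 2 and 674 in KO 3, from 43 to 97 reads in WT libraries and 1159 and 444 reads in KO libraries. Both KO libraries were far above the WT range. The mean was 64.6 ± 25.5 in WT and 933 ± 366 in KO, a ratio of 14.4 (log2 fold change 3.86, SE 0.46). Phlda3 was 18.5 times the WT mean in KO 2, where adipocyte markers took 0.165% of reads, and 10.4 times in KO 3, where they took 0.00116%. The gene lies at chr1:135766119-135769136 on the plus strand.

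Bbc3 encodes PUMA, a BH3-only protein that triggers apoptosis at the mitochondrion. It had 255, 225 and 150 normalized reads in WT 1, WT 2 and WT 3, and 490 and 1223 in KO 2 and KO 3. Both KO libraries exceeded every WT library, KO 3 by more than KO 2, the reverse of the order for Phlda3 and Cdkn1a. The mean was 210 ± 54.0 in WT and 856 ± 518 in KO, a ratio of 4.08 (log2 fold change 1.91, SE 0.42). Its locus is chr7:16308393-16318205 on the plus strand.

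Trp53inp1, encoding a nuclear and autophagosomal protein that promotes p53 activity and cell death, was the member furthest below WT. Its values were 586, 321 and 716 in WT 1, WT 2 and WT 3, and 240 and 77.5 in KO 2 and KO 3. Both KO libraries were below the lowest WT library, and KO 3 rested on 51 reads. The KO mean was 0.293 of the WT mean (158 ± 115 against 541 ± 201, log2 fold change -1.90, SE 0.51). The gene lies at chr4:11156431-11174379 on the plus strand.

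Eda2r, a death receptor of the tumor necrosis factor receptor family that binds an ectodysplasin, was close to the limit of detection. It had 1, 9 and 1 reads in WT 1, WT 2 and WT 3, and 5 and 10 in KO 2 and KO 3. With a floor of 3 reads, which covers counting error only, WT 1 and WT 3 were below it, the groups overlapped, and Eda2r was the 1 member that did not pass the filter. Its locus is chrX:97333840-97377216 on the minus strand.

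Sesn1 encodes sestrin 1, a stress protein that restrains mTORC1 when amino acids are low. It had 1692, 1212 and 1040 normalized reads in WT 1, WT 2 and WT 3, and 1209 and 2047 in KO 2 and KO 3. KO 2 lay within the WT range and KO 3 above it. The log2 fold change was 0.29 (SE 0.29) and turned to -0.09 without KO 3. The gene spans chr10:41809935-41908424 on the plus strand.

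Zmat3, encoding a zinc finger protein that binds RNA, was low in all libraries. Its values were 17.5, 47.7 and 61.7 in WT 1, WT 2 and WT 3, and 82.2 and 65.3 in KO 2 and KO 3. KO 3, with 43 reads, was only just above WT 3, with 72 reads before scaling. The mean was 42.3 ± 22.6 in WT and 73.8 ± 12 in KO (log2 fold change 0.95, SE 0.64), so the difference of the means was smaller than the distance from WT 1 to WT 3. Its locus is chr3:32334792-32366014 on the minus strand.

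To place the members by level in WT HSCs, normalized read counts were divided by the length of the longest transcript. Trp53 was the most abundant, at 1486 ± 11.2 normalized reads per kb (SD, n = 3), above 92.7% of the genes with a length. Mdm2 followed at 539 ± 54.8 per kb, Ccng1 at 403 ± 56.8 and Sesn1 at 345 ± 88.6. Bbc3 at 116 ± 29.7 and Trp53inp1 at 99.6 ± 37.0 per kb formed a middle level, Cdkn1a at 46.7 ± 24.2 and Phlda3 at 45.0 ± 17.7 a lower one, and Zmat3 at 5.43 ± 2.90 and Eda2r at 0.666 ± 0.846 were lowest. The ranges of WT libraries overlapped between the neighbours Ccng1 and Sesn1, Bbc3 and Trp53inp1, Trp53inp1 and Cdkn1a, and Cdkn1a and Phlda3, so their order is not resolved. The gene furthest above WT in KO HSCs, Phlda3, was thus among the less abundant members in WT, and the most abundant member, Trp53, had a log2 fold change smaller in size than all tested members but Mdm2 and Sesn1.

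The fold change of a gene went with the GC content of its transcript in these libraries, and the members span that range. When the 13015 genes with a known transcript were cut into 10 groups of rising GC content, the median log2 fold change went from -0.76 at 39.8% GC to 0.73 at 59.9% GC, from -0.54 to 0.47 in KO 2 and from -0.99 to 1.01 in KO 3. In the group of lowest GC content 61.9% of genes were below every WT library in both KO libraries and 2.53% above; in the highest group 1.15% were below and 60.4% above. Trp53inp1 (38.8% GC) and Ccng1 (40.8%), the members below WT, are in the lowest group, and Phlda3 (62.6%) and Bbc3 (65.2%) are in the highest. Trp53 (53.3%) had a log2 fold change of 0.46 where its group had a median of 0.20, and Mdm2 (46.2%) was at -0.19 where its group was at -0.21. The cause of the trend was not tested.

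**Figure D2:**
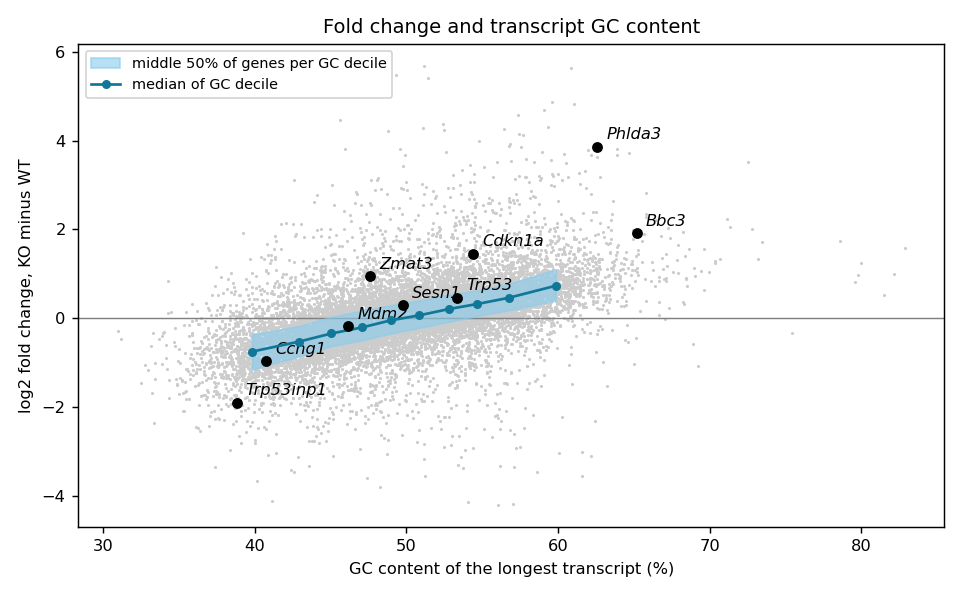
Log2 fold change (KO minus WT) against transcript GC content (%), with a grey point for each gene, the 9 tested members in black, the median of each of 10 GC groups as a line and the middle 50% of genes as a band. Cdkn1a and Zmat3 lie above the band, Trp53, Ccng1 and Mdm2 lie inside it, and Sesn1 lies near its upper edge. Phlda3 and Bbc3 lie past the high-GC end of the band and above its level there. Trp53inp1 lies past the low-GC end and below its level there.

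A linear trend on log2 transcript length and GC content was therefore removed from each library and the members were measured again. Phlda3 was then at a log2 fold change of 2.97 (SE 0.47), with 3.63 in KO 2 and 2.32 in KO 3. Zmat3 was at 1.08 (SE 0.68) and Bbc3 at 0.83 (SE 0.33), both still above every WT library in both KO libraries. Trp53 was at 0.21 in KO 2 and at 0.21 in KO 3, less than on the deposited values but still above the WT range. Cdkn1a was at 1.14 (SE 0.53), with 1.87 in KO 2 and 0.42 in KO 3, and KO 3 fell back into the WT range. Trp53inp1 stayed below every WT library at -1.12 (SE 0.41), Ccng1 moved to -0.31 (SE 0.21) with overlapping groups, and Mdm2 changed sign to 0.08 (SE 0.17). In all, 4 of the 9 were above WT and 1 below, where 17.2% and 18.5% of all genes with a known transcript were above and below on this scale.

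**Figure D3:**
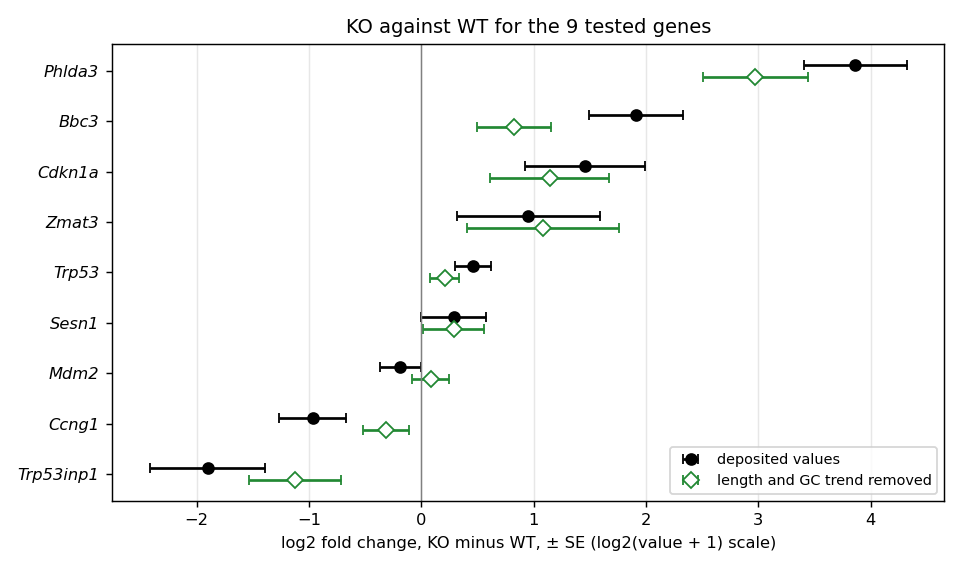
Log2 fold change (KO minus WT, log2(value + 1) scale) of the 9 tested members with SE bars, on the deposited values (filled circles) and after removal of the length and GC trend (open diamonds). Phlda3 stays furthest from 0 on both scales (3.86 and 2.97), and Mdm2 moves from -0.19 to 0.08.

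To see how the rest of the network behaved, 7 further lists of p53 genes were read from the same fit, 107 genes of which 102 passed the filter. limma called none of the 102 at an adjusted p under 0.05 in either direction, where it called 0.00732% of all genes, Syncrip alone. At an unadjusted p under 0.05 there were 14 higher and 20 lower genes among the 102, beside 1816 higher and 1983 lower among the 13661. edgeR also called none of the 102 (0.0146% of all genes), while DESeq2 called 12 higher and 11 lower, where it called 9.27% of all genes higher and 9.46% lower. Both KO libraries were above every WT library for 23 of the 102 genes and below for 27, shares of 22.5% and 26.5% that were close to those of all genes.

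Among the 24 tested regulators and cofactors of p53, 9 (37.5%) were below every WT library in both KO libraries and 2 (8.33%) above, beside 23.2% and 23.9% of all genes, with a median log2 fold change of -0.07. With the trend removed, 36.4% were below and 9.09% above, beside 18.5% and 17.2% of all genes. Atr, which responds to stalled replication forks, had 845, 792 and 751 normalized reads in WT and 252 and 343 in KO (-1.43, SE 0.24, adjusted p = 0.0815 by limma). Chek1, the kinase below Atr, had 705, 545 and 574 in WT and 355 and 207 in KO (-1.16, SE 0.30). Atm, Prkdc and Mdm4, named after their values were seen, were at -1.0, -0.95 and -1.04; the first 2 encode kinases of double-strand breaks and Mdm4 the partner of Mdm2. With the length and GC trend removed, Atr was at -0.81, Chek1 at -0.52, Atm at -0.51, Prkdc at -0.53 and Mdm4 at -0.60, all still below every WT library in both KO libraries. Of the other kinases of the list, also named after their values were seen, Chek2 was at -0.69 with its groups overlapping once the trend was removed, and Hipk2 was at 0.26, or -0.04 with the trend removed, with overlapping groups on both scales. Ppp1r13l, encoding iASPP, an inhibitor of p53, was at 1.12 (SE 0.36) or at 0.20 with the trend removed, and the ubiquitin ligase gene Trim24 at 0.42 (SE 0.24) and 0.47.

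The other targets, 63 tested genes in 5 lists by role, were above every WT library in both KO libraries for 20 (31.7%) and below for 11 (17.5%), beside 23.9% and 23.2% of all genes, with a median log2 fold change of 0.25. With the length and GC trend removed these were 18.0% above and 9.84% below of the 61 genes with a known transcript, beside 17.2% and 18.5% of all genes, with a median of 0.03. On the deposited values, the median against the WT mean was 0.27 in KO 2 and -0.05 in KO 3.

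Targets of arrest and signalling had 6 of 14 above WT (42.9%) and 0 below, beside 23.9% and 23.2% of all genes, with a median of 0.56. With the trend removed, 4 were above (28.6%) and 1 below (7.14%), beside 17.2% and 18.5% of all genes, with a median of 0.23. Psrc1, a spindle protein gene, had 304, 397 and 409 normalized reads in WT and 963 and 793 in KO (1.25, SE 0.25, adjusted p = 0.0815 by limma), and stayed at 1.11 with the trend removed. Epha2, an ephrin receptor, had 0, 11.3 and 19.7 in WT and 54.5 and 97.2 in KO, where the 0 of WT 1 makes the fold change depend on the pseudocount.

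Targets of cell death were divided, with 3 of 13 above (23.1%), 3 below and a median of -0.02, shares near the 23.9% and 23.2% of all genes. Ninj1, whose protein ruptures the membrane of dying cells, was at 0.98 (SE 0.26) and the nuclease gene Aen at 0.82 (SE 0.27). Pmaip1, which encodes the BH3-only protein NOXA, had 64.9, 128 and 176 normalized reads in WT and 55.5 and 34.9 in KO (-1.35, SE 0.54), on the other side of WT from Bbc3, which encodes another BH3-only protein. Apaf1, the core of the apoptosome, was at -0.56 (SE 0.22). With the trend removed Pmaip1 was at -0.78 and Apaf1 at -0.31, and the groups overlapped for both. Over the list, 3 were then above (23.1%) and 1 below (7.69%), beside 17.2% and 18.5% of all genes. Bax, named after its values were seen, had 1682, 1573 and 1704 in WT and 2909 and 2863 in KO, a log2 fold change of 0.80 that became -0.15 with the trend removed, its transcript being 63.5% GC. Aen kept 0.68 and Ninj1 0.32 on that scale, and of Aen, Ninj1 and Bax only Aen was still above every WT library in both KO libraries.

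Targets of DNA repair and nucleotide supply had 0 of 7 above and 4 below (57.1%), beside 23.9% and 23.2% of all genes, with a median of -0.48. Their median GC content was 47.1%, and in the GC group with a median of 47.1% both KO libraries were below WT for 31.3% of genes. With the trend removed 2 were below (28.6%), beside 18.5% of all genes, and the list median was -0.28. Ddb2, a sensor of ultraviolet damage, had 500, 487 and 528 normalized reads in WT and 404 and 226 in KO (-0.74, SE 0.30), and stayed below every WT library with the trend removed. Rrm2b, a subunit of ribonucleotide reductase, was at -1.07 (SE 0.41) and at -0.33 with the trend removed.

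Targets of metabolism and autophagy had 7 of 16 above (43.8%) and 2 below (12.5%), beside 23.9% and 23.2% of all genes, with a median of 0.38, or 0.01 with the trend removed, where 1 of 15 was above (6.67%) and 1 below, beside 17.2% and 18.5% of all genes. The gene above was Ddit4, an inhibitor of mTORC1 also known as REDD1, with 107, 121 and 76.3 normalized reads in WT and 156 and 325 in KO (1.17, SE 0.43; 0.62 with the trend removed). Sco2, needed for cytochrome c oxidase assembly, was at 0.89 (SE 0.25), the autophagy gene Dram1 at -1.01 (SE 0.37) and 9630033F20Rik, the symbol of Tigar in the table, at -0.32 (SE 0.33). For Dram1, KO 2 at 690.8 was only just below WT 1 at 691.0, and KO 3 was at 289. Sco2 moved to 0.23 and Dram1 to -0.77 with the trend removed, and the groups overlapped for both. Among further targets, 4 of 13 were above (30.8%) and 2 below (15.4%), again beside 23.9% and 23.2%: Trp53cor1, the lincRNA-p21 gene beside Cdkn1a, was at 0.99 (SE 0.78), Sytl1 at 0.68 (SE 0.20), Pstpip2 at -1.10 (SE 0.32) and Ankra2 at -0.23 (SE 0.23). With the trend removed Trp53cor1 was at 0.85 and Pstpip2 at -1.0, both still apart from WT, whereas Sytl1 was at 0.03 with overlapping groups and Ankra2 changed sign. Of the 12 further targets with a known transcript, 3 were above (25%) and 1 below (8.33%) on that scale, beside 17.2% and 18.5% of all genes.

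Of 15 cell cycle genes that p53 is known to lower through p21 and the DREAM repressor complex, both KO libraries lay below every WT library for 7 (46.7%) and above for 1, beside 23.2% and 23.9% of all genes, and the groups overlapped for 7. The median was -0.43, or -0.39 with the trend removed, where 5 were below (33.3%) and 0 above, beside 18.5% and 17.2% of all genes. On the deposited values the median was -0.04 in KO 2 and -0.83 in KO 3, so the list lay further below WT in KO 3, whereas Cdkn1a was further above WT in KO 2. KO 3 is also the library with the fewest reads, the lowest share of neutrophil reads and the steeper GC trend of the KO libraries. In the GC group with a median of 47.1%, near the 46.6% of this list, the median was -0.13 in KO 2 and -0.27 in KO 3. The part of each of these was not tested. Bub1, a spindle checkpoint kinase gene, had 1600, 1682 and 1957 normalized reads in WT and 850 and 551 in KO (-1.34, SE 0.24, adjusted p = 0.0815 by limma). Top2a, topoisomerase II alpha, was at -1.01 (SE 0.23). Bub1 was at -0.71 and Top2a at -0.56 with the trend removed, both still below every WT library in both KO libraries. Plk1, a mitotic kinase gene, was the gene above WT, at 0.29 (SE 0.21), and changed sign with the trend removed.

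**Figure D4:**
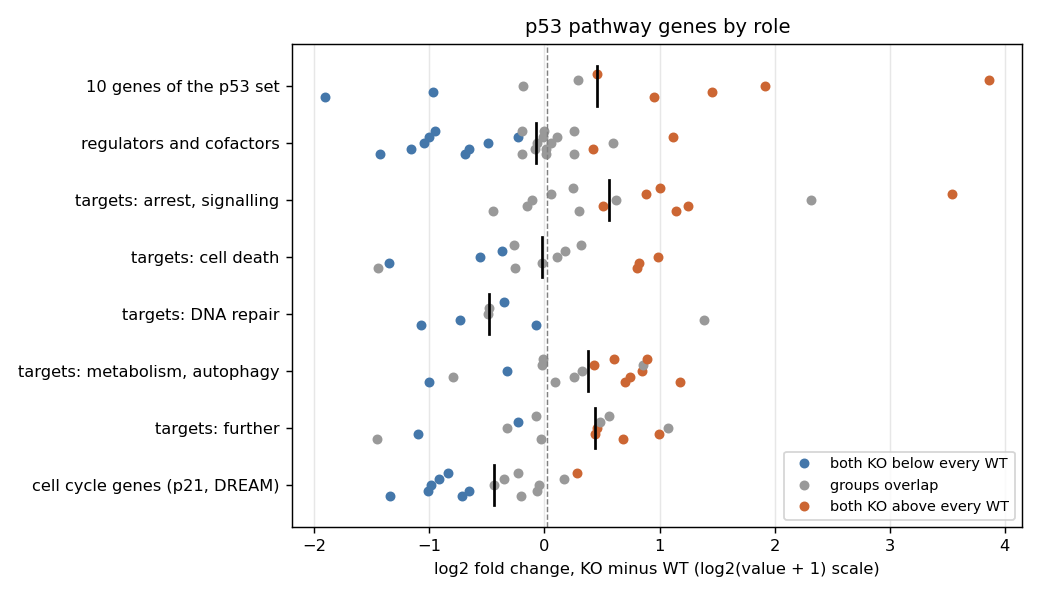
Log2 fold change (KO minus WT) of the tested genes of each p53 list, with a point for each gene coloured by whether both KO libraries lie above or below every WT library, a black tick at the list median and a dashed line at the median of all genes (0.02). The medians run from -0.48 for DNA repair targets to 0.56 for arrest and signalling targets, and all lists but that of arrest targets hold genes below WT.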

How the data were processed

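Per the labels, total RNA of sorted HSCs was sequenced from 3 WT and 2 KO samples. The submitters' processing notes name STAR, featureCounts, DESeq2 and the genome build mm10, and the annotation and the use of strand are not given in the sources used here. The authors deposited normalized signal, read counts divided by a size factor for each library, for 24046 symbols. Dividing by the value of 1 read gave whole reads for 100% of values (tolerance 0.01). A second deposited table held the authors' own fold changes and p-values and was not used.

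The 13661 genes that reached 10 in 2 or more libraries were tested with limma 3.58.1 (lmFit, eBayes with trend) on log2(value + 1), with Benjamini-Hochberg adjustment over all of them and calls at an adjusted p under 0.05. edgeR 4.0.16 (quasi-likelihood) and DESeq2 1.42.0 were run on the recovered reads, in R 4.3.3, and the fits were tested on simulated data. The members and lists were chosen with earlier results of these data known. Named genes were the 10 members, Syncrip, and from each further list every called gene and, of genes whose groups did not overlap, the 2 with the highest and the 2 with the lowest fold change. Transcript length and GC content came from the longest GENCODE M21 transcript, matched by symbol for 13015 genes. Intervals and floors (3 reads) cover counting error only, since reads carry no molecular identifiers. No 2 libraries agreed within sampling noise, and no other symbol had the same reads as a member. Alternatives covered the pseudocount, filter, scaling, array weights, tool, length and GC trend, replicate number and each library left out.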

Additional observations from a re-analysis of the deposited data

How the results depend on the processing

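limma called 1 gene of 13661 on the main settings (3799 at an unadjusted p under 0.05). The count was 2 with a pseudocount of 10, 0 with no filter (3963 of 17487 genes with a read at that unadjusted p), 0 with array weights (3328), 0 with the length and GC trend removed (2253), 2 with edgeR and 2279 with DESeq2 (1128 higher, 1151 lower). Leaving out each library gave 0 to 3560 calls: 0 when a WT library was left out (2160 to 3050 by the unadjusted p), 11 without KO 3 and 3560 without KO 2, where KO 3 stands alone and is assumed to vary like WT. Syncrip missed the threshold in 7 of these settings. In the wider p53 lists, calls went from 0 to 23 with DESeq2 and from 0 to 35 over the libraries left out, the 35 without KO 2, where 26.6% of all genes were called (18.7% with DESeq2). The median of the members (0.46) was 0.29 with the trend removed and 0.37 to 0.67 over the libraries left out. Members above every WT library numbered 3 with quantile normalization, which left out Cdkn1a and Zmat3 (23.7% of all genes above), and 5 to 7, Eda2r included, over the libraries left out (26.4% to 40.0%). Members below numbered 1 with the trend removed (18.5%) and 2 to 3 over the libraries left out (26.1% to 38.3%). The highest shares, with 7 members above and 3 below, came without KO 2, where 1 KO library is set against WT. Among single members, the sign changed for Mdm2 with the trend removed and for Sesn1 without KO 3, and for no other member in any of the 18 alternatives. Ankra2 turned to 0.17 with the trend removed and 0.079 with the replicate block as well, and Plk1 to -0.14 and -0.29. Samples share replicate numbers 2 and 3, and deviations from the group means correlated at -0.06 and -0.18, which gives no sign of pairing. The deviations of KO 2 and KO 3 mirror each other, so these correlations cannot decide whether the numbers pair the samples. With the number as a replicate block limma called 6 genes, or 4 with the trend removed too, and none of the wider p53 lists. Beyond the trend removal and the library left out, whose construction sets them, the cause of these differences was not tested.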

Other observations

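Of the p53 family and its upstream activators that did not pass the filter, Trp63 had no read in any library, which allows up to 3 reads in each. Trp73, a p53 relative, was at 19.1 normalized reads in WT 1, 1.03 in KO 2 and 0 in WT 2, WT 3 and KO 3. Cdkn2a, whose locus encodes the Mdm2 inhibitor p19Arf and the kinase inhibitor p16Ink4a, was at 0 in all 3 WT libraries and at 6.17 in KO 2 and 10.6 in KO 3, from 6 and 7 reads. These genes were named after their values were seen, and no test was made of them.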
